A study of Arabidopsis thaliana with 18 samples.

Results

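ICL, the gene of isocitrate lyase (locus AT3G21720), was followed in germinating Arabidopsis thaliana seedlings that make or lack tocopherols. It was represented by 1 probe set of the 22746 probe sets on the Affymetrix ATH1 array that are not controls, and this probe set was taken because the platform annotation names ICL as its only gene, 1 of 13286 genes named in this way. ICL signals were among the brightest on every array 1 day after transfer to warmth and did not differ detectably between genotypes. By day 3 they had fallen in all 3 genotypes, to 21.0% of the day 1 mean in wild type, 6.12% in vte1 and 37.5% in vte2. The resulting difference between the 2 mutants at day 3, 2.53 ± 0.46 on the log2 scale (SE, n = 3 each), passed the test, whereas neither mutant passed it against wild type.

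Isocitrate lyase splits isocitrate into succinate and glyoxylate and, with malate synthase, forms the part of the glyoxylate cycle that bypasses the carbon dioxide releasing steps of the citric acid cycle. In oilseed seedlings the triacylglycerol of oil bodies is cut by lipases, the fatty acids are broken down by beta-oxidation in the peroxisome, and the glyoxylate cycle turns the acetyl units into organic acids from which sugar is made until the cotyledons photosynthesise. Isocitrate lyase is the classical marker of this stage, and its transcript is known to peak soon after germination and to decline as the seedling becomes green.

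The 3 genotypes were wild type (WT, Columbia-0), vte1-1 and vte2-1, both mutants in Columbia-0 as well and here called vte1 and vte2. VTE2 (homogentisate phytyltransferase) and VTE1 (tocopherol cyclase) act in succession in tocopherol synthesis; a vte1 mutant is known to keep a benzoquinol intermediate of the pathway, which a vte2 mutant lacks. Seeds of every genotype were held for 5 days at 6 °C, then germinated at 22 °C under a 12 h photoperiod on 0.5X Murashige and Skoog medium with phytoagar, and whole seedlings (about 100 mg, pooled, per sample) were harvested after 1 day (24 h) or 3 days (72 h). Each of the 6 groups of genotype and day held 3 samples that the titles call biological replicates, 1 array each, so 18 arrays limited the precision of every value. How separately these replicates were grown is not given in the sources used here. No probe set named for VTE1 or VTE2 was analysed here, so the genotype labels were not checked by their own transcripts.

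Signals are in the units of the deposited MAS5 values, and every array had the same trimmed mean of about 500, while the median signal per array ran from 122 to 161 at day 1 and from 164 to 181 at day 3. Values of whole seedlings cannot tell fewer ICL-expressing cells from less ICL RNA per cell. At day 3, WT replicate 3 stood apart from its group: across all probe sets its log2 signals correlated with WT replicates 1 and 2 at r = 0.9324 and 0.9305, and with the 3 vte1 arrays at 0.9345, 0.9448 and 0.9518. The log2 ratio of the 3' to the 5' control probe sets of GAPDH is high where signal from the 5' end is lost. It was lowest in replicate 3 of all 6 groups, between -0.62 and 0.43 there and between 0.24 and 1.13 in the other arrays. Replicate 3 thus differed from the others, but the low ratio does not mark it as poorer RNA. All arrays stay in the main results, and results that rest on the replicate 3 arrays are given with and without them.

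At day 1 ICL was about equally high in the 3 genotypes. The 3 WT arrays gave 33270.5, 31234.5 and 42771.9, in the order of replicates 1, 2 and 3. The vte1 arrays gave 32028.5, 38796.5 and 53815.6, and the vte2 arrays 33591.1, 31059.9 and 36332.1. The 3 groups overlapped, and replicate 3 was the highest in each. Of the 22746 probe sets, ICL was the brightest of all on WT replicate 3, second on vte1 replicate 3, and never below rank 22 on a day 1 array. Whether signals of this brightness were limited by the scanner was not tested, and such a limit would compress differences among them.

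The day 1 means were 41547 ± 11151 in vte1, 35759 ± 6158 in WT and 33661 ± 2637 in vte2 (SD, n = 3 each). No neighbours in this order differed beyond the spread between arrays. The vte1 minus WT difference on the log2(signal + 22) scale was 0.20 ± 0.46 (SE; 95% interval -0.77 to 1.16; limma adjusted p = 0.95). It was -0.08 for vte2 minus WT (-1.04 to 0.89; adjusted p = 1.00) and -0.27 for vte2 minus vte1 (-1.24 to 0.69; adjusted p = 0.84). The intervals leave room for a difference of about 1 on the log2 scale in either direction, so small differences at day 1 were not detectable with 3 arrays a group. Of all 15922 probe sets tested, 2.09%, 0.0942% and 5.22% were called in these comparisons at an adjusted p of 0.05, in the same order. Exact two-sided permutation tests over the 6 arrays gave p = 0.6, 0.8 and 0.3, where 0.1 is the smallest that 3 against 3 allows.

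**Figure D1:**
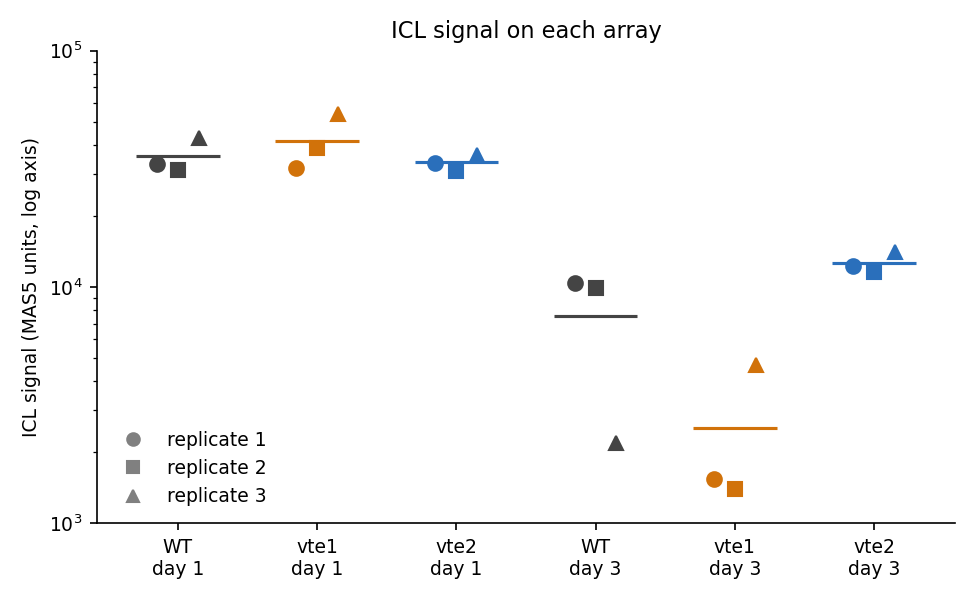
ICL signal (MAS5 units, log axis) on each of the 18 arrays, by genotype and day; points are single arrays, with the marker showing the replicate number, and the horizontal lines are group means (n = 3). The 9 day 1 arrays lie between 31059.9 and 53815.6, all above the day 3 arrays, while at day 3 the vte2 arrays lie highest and WT replicate 3, at 2187.3, falls within the range of vte1.

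ICL fell from day 1 to day 3 in each genotype, and the size of the fall differed between the mutants. At day 3 the WT arrays gave 10393.8, 9936.7 and 2187.3, again in the order of replicates 1, 2 and 3. The vte1 arrays gave 1545.4, 1397.8 and 4678.9, and the vte2 arrays 12285.7, 11572.3 and 14013.4. In all 3 genotypes every day 3 array lay below every day 1 array. Such a separation with lower signals at day 3 was seen for 26.3% of probe sets in WT, 25.7% in vte1 and 24.9% in vte2. ICL had left the very top of the range by then: its rank lay between 118 and 176 in vte2, between 260 and 1568 in WT and between 622 and 2492 in vte1.

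The fall in WT was 2.53 on the log2 scale (day 3 minus day 1 -2.53; 95% interval -3.50 to -1.57; limma adjusted p = 0.00018). In vte1 the change was -4.21 (-5.18 to -3.25; adjusted p = 4.3e-07), and in vte2 it was -1.42 (-2.38 to -0.45; adjusted p = 0.020). As ratios of mean signals, day 1 exceeded day 3 by 4.76 times in WT, 16.4 times in vte1 and 2.67 times in vte2. A large part of the transcriptome moved over the same 2 days, with 47.4% of probe sets called in WT, 53.3% in vte1 and 40.2% in vte2, and the median change of all probe sets was 0.08, 0.14 and 0.06. Counted from the most negative change, ICL ranked 214 in WT, 39 in vte1 and 989 in vte2. Exact permutation tests gave p = 0.1 in each genotype, the smallest possible. Without WT day 3 replicate 3 the WT change shrank to -1.80, and the vte2 call was lost without any of vte2 day 1 replicate 1, vte2 day 3 replicate 1 or vte2 day 3 replicate 2 (adjusted p = 0.050, 0.050 and 0.057, each just above the threshold). Yet the vte2 arrays varied least at each day (log2 SD 0.11 and 0.14), and like-numbered vte2 arrays fell by 2.73, 2.68 and 2.59 times. The limma test uses 1 spread for all groups, including WT and vte1 at day 3 (log2 SD 1.27 and 0.96). With all arrays kept and other processing settings, the vte2 call held (limma adjusted p between 0.00011 and 0.029).

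At day 3 the levels ran from vte2, with a mean of 12624 ± 1255, over WT, with 7506 ± 4612, to vte1, with 2541 ± 1853 (SD, n = 3 each). The 3 vte2 arrays all lay above the 3 arrays of either other group, while WT and vte1 overlapped through WT replicate 3. The spread was uneven: the highest array was 1.21 times the lowest in vte2, 3.35 times in vte1 and 4.75 times in WT. Because the model gives all groups 1 estimate of the spread, the standard error of 0.46 is the same for each of these differences. On the log2 scale the SD at day 3 was 1.27 in WT, 0.96 in vte1 and 0.14 in vte2. The shared estimate thus understates the spread of the WT and vte1 arrays and overstates that of the vte2 arrays.

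ICL was higher in vte2 than in vte1 by 2.53 on the log2 scale (95% interval 1.56 to 3.49; limma adjusted p = 0.0037), a fitted fold of 5.76, and it ranked 44 from the highest of the 15922 probe sets tested. In this comparison 3.52% of probe sets were called and 2.53% were called higher in vte2; 25% had groups that did not overlap. The ratio of vte2 to vte1 was 7.95 for the arrays numbered 1, 8.28 for those numbered 2 and 3.00 for those numbered 3. Every vte2 array lay above every vte1 array, so any pairing gives this direction and the numbers add no support. The exact permutation p was 0.1, the smallest possible. Leaving out any 1 array kept the call, with differences between 2.22 and 3.08. When a replicate number was left out of all groups, the difference was 2.30 without replicate 1 (adjusted p = 0.21), 2.28 without replicate 2 (adjusted p = 0.25) and 3.00 without replicate 3 (called). These 3 fits called 29, 33 and 2229 probe sets in this comparison, against 560 with all arrays, so the lost calls are not particular to ICL.

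Against WT, vte1 had less ICL on 2 of 3 pairs of like-numbered arrays, but the difference rested on which WT and vte1 arrays were used. The difference was -1.48 ± 0.46 (SE; 95% interval -2.45 to -0.52), with an unadjusted limma p of 0.0046 and an adjusted p of 0.20, so that it did not pass the threshold; 0.301% of all probe sets did. WT exceeded vte1 by 6.73 and 7.11 times in the arrays numbered 1 and 2, whereas in those numbered 3 vte1 exceeded WT by 2.14 times. Without WT replicate 3 the difference was -2.22 (adjusted p = 0.0034), and without vte1 replicate 3 it was -2.04 (adjusted p = 0.037). Without replicate 3 of every group, which leaves 2 arrays a group, it was -2.77 (adjusted p = 1.6e-10). These 3 fits called 337, 134 and 1906 probe sets, against 48 with all arrays, so their small p-values are not particular to ICL. Without replicate 1 or 2 of every group the ICL difference was -0.86 and -0.82, and each of those fits called 0 probe sets. The interval and the limma p rest on the shared estimate, which is smaller than the spread of the WT and vte1 arrays. The exact permutation p over all 6 arrays, which does not use that estimate, was 0.2.

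The vte2 arrays were above all 3 WT arrays at day 3, by 1.18, 1.16 and 6.41 times for the arrays numbered 1, 2 and 3. The difference of 1.04 (95% interval 0.07 to 2.01) did not pass (limma adjusted p = 0.32), in a comparison where 2.34% of probe sets were called and 19.8% had groups that did not overlap. Without WT replicate 3 it shrank to 0.31. The exact permutation p was 0.1, the smallest possible.

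The change of the vte2 minus vte1 difference from day 1 to day 3, which asks whether the mutants lost different amounts of ICL, was 2.80 ± 0.65 (SE; 95% interval 1.43 to 4.17; limma adjusted p = 0.016), and 5.29% of probe sets were called in this contrast. It ranked 36 from the highest. The change was -1.68 for vte1 minus WT (-3.05 to -0.31; adjusted p = 0.28; 1.06% of probe sets called) and 1.12 for vte2 minus WT (-0.25 to 2.49; adjusted p = 0.85; 0.201% called). Neither mutant's loss of ICL was thus shown to differ from that of WT with all arrays in the model. Without WT day 3 replicate 3 the change of vte1 minus WT became -2.42 and passed (adjusted p = 0.015), and that of vte2 minus WT shrank to 0.38. That fit called 374 and 23 probe sets in these contrasts, against 168 and 32 with all arrays. The call for vte2 minus vte1 was lost without vte1 day 3 replicate 1 (2.56, adjusted p = 0.055) or replicate 2 (2.49, adjusted p = 0.054), and without replicate 1 or 2 of all groups (2.75 and 2.52, adjusted p = 0.28 and 0.37). Without replicate 1 or 2 of all groups the fits called 2 and 5 probe sets in this contrast, against 842 with all arrays.

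**Figure D2:**
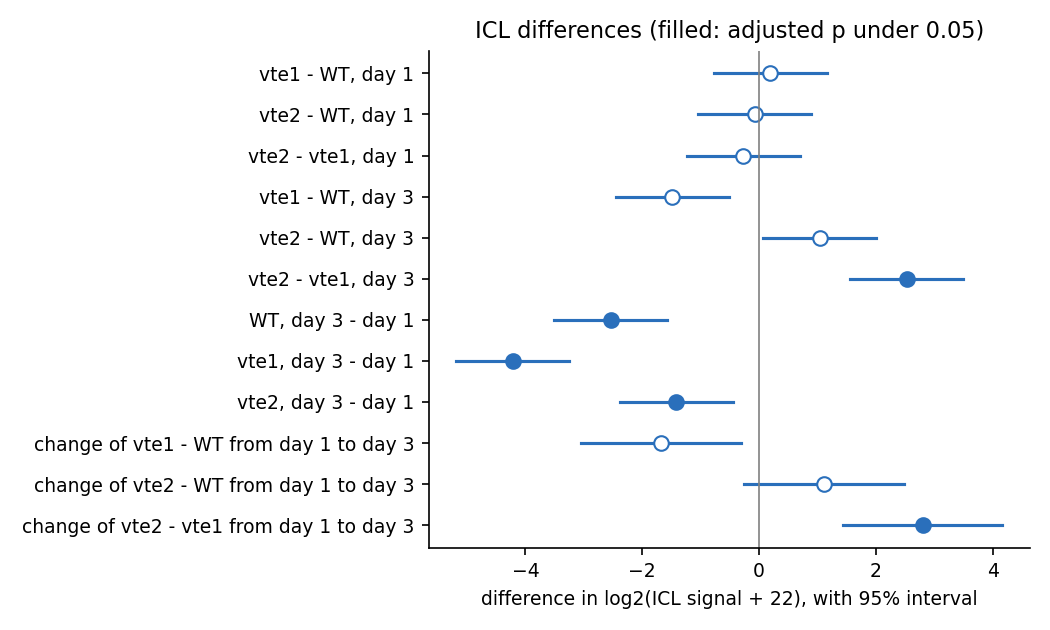
Differences in log2(ICL signal + 22) for the 12 contrasts, with 95% intervals from limma; filled points have an adjusted p under 0.05. The 3 falls between the days, the day 3 difference between the mutants (2.53) and its change between the days (2.80) stand clear of 0 and pass. The 3 day 1 intervals include 0. Intervals that exclude 0 without passing are those of vte1 minus WT (-1.48) and vte2 minus WT (1.04) at day 3. The same holds for the change of vte1 minus WT between the days (-1.68).

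**Figure D3:**
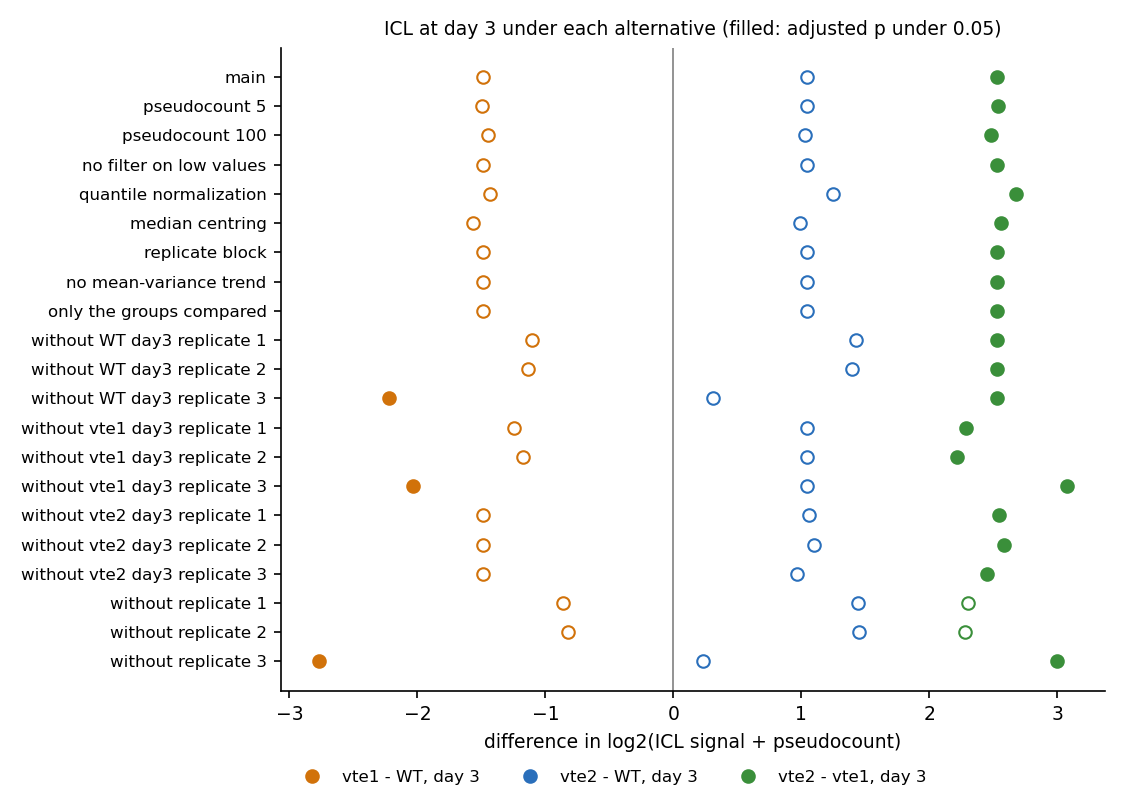
Difference in log2(ICL signal + pseudocount) at day 3 for each pair of genotypes under the settings that could move it; filled points have an adjusted p under 0.05. The vte2 minus vte1 values stay between 2.22 and 3.08, and the vte1 minus WT value moves from -1.48 to -2.22 without WT day 3 replicate 3.

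Few other genes of seed oil use had a named probe set: of 115 loci in 10 lists of oil use, peroxisomes and seedling stage, 20 were measured, ICL included, and 19 passed the filter on low signals. ICL was the only 1 of the 9 loci of the glyoxylate cycle list, so malate synthase, the peroxisomal citrate synthases, the aconitases and peroxisomal malate dehydrogenase were not analysed here. Of the 18 measured and tested members besides ICL, 8 rose and 2 fell between the days in WT, 10 rose and 5 fell in vte1, and 9 rose and 2 fell in vte2. Of all probe sets, 24.6% rose and 22.8% fell in WT, 30% rose and 23.4% fell in vte1, and 21.7% rose and 18.5% fell in vte2. The genes that rose were the 7 photosynthesis genes and HPR1 in each genotype, the root hair markers EXPA7 and EXPA18 in vte1, and AIM1 in vte2. AIM1 was thus the only measured gene of oil use that was called higher at day 3 than at day 1. At day 3, 1 of the 18 (PPDK) differed between vte2 and vte1, in the same direction as ICL, where 3.52% of all probe sets were called and 2.53% were called higher. None of the 18 was called between vte1 and WT, where 0.301% of all probe sets were. HPR1, PSB27 and PSBW were lower in vte2 than in WT (0.59% of all probe sets), but of the 29 alternatives 7 ended each of the calls of HPR1 and PSB27 and 17 that of PSBW, where leaving out any 1 of 11 arrays was enough.

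For the steps before ICL, the genes of oil breakdown did not share a course. SDP1, the main lipase that starts triacylglycerol breakdown in Arabidopsis seedlings, had day 3 signals of 1322.7, 1335.4 and 687 on the WT arrays. The vte1 arrays gave 600.8, 544.4 and 662.9 and those of vte2 863.3, 1135.4 and 735.3. As with ICL, WT replicate 3 was the lowest of its group, although it did not reach the vte1 range. SDP1 fell between the days in vte1 (-0.72, limma adjusted p = 0.032), a call lost without vte1 day 1 replicate 2 or 3 or vte1 day 3 replicate 1 or 2 (-0.72 to -0.64). It had changes of -0.03 in WT and -0.13 in vte2 that did not pass, and was not called between genotypes. SDP1L, a related lipase, fell in WT (-2.76), vte1 (-2.79) and vte2 (-1.71). Its day 3 signals of 3.6 to 49.8 lie around the pseudocount, and with a pseudocount of 5 or 100 the values became -3.64 or -1.51 in WT, -3.42 or -1.65 in vte1 and -2.02 or -1.03 in vte2, all still called. OLEO3, an oleosin that coats oil bodies, fell in vte1 (-2.95) and vte2 (-1.37), and its change of -0.94 in WT did not pass (adjusted p = 0.087). AIM1, a multifunctional enzyme of peroxisomal beta-oxidation, rose in vte2 (0.74, adjusted p = 0.037), with values of 0.28 in WT and 0.25 in vte1 that did not pass. The AIM1 call was lost with median centring (0.50, adjusted p = 0.12) and without vte2 day 1 replicate 1 or 2 or vte2 day 3 replicate 1 or 3 (0.54 to 0.76), and that of OLEO3 in vte2 without vte2 day 1 replicate 2 (-1.26) or vte2 day 3 replicate 1 (-0.82).

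PPDK, pyruvate,orthophosphate dikinase, which makes phosphoenolpyruvate for sugar synthesis, was the listed gene with the highest correlation with ICL over the 18 arrays (r = 0.947). At day 1 the WT arrays gave 7305.1, 6860.6 and 5961.2, those of vte1 6838.2, 7428.9 and 6397.2, and those of vte2 6283.8, 5957.8 and 3947.2. At day 3 the WT arrays gave 4030.9, 3019.2 and 981.5, those of vte1 1034.1, 895.1 and 1023.3, and those of vte2 3533.1, 2324.9 and 4563.8. WT replicate 3 was again the array that fell into the vte1 range, and the vte2 and vte1 arrays did not overlap. PPDK was higher in vte2 than in vte1 at day 3 by 1.75 ± 0.36 (SE; limma adjusted p = 0.0091). It fell between the days in WT (-1.54, adjusted p = 0.0017) and vte1 (-2.78, adjusted p = 3.3e-06), and its change of -0.66 in vte2 did not pass (adjusted p = 0.16). The change of its vte2 minus vte1 difference between the days was 2.12 (adjusted p = 0.020). Without vte1 day 3 replicate 2 both calls were lost (1.68 and 2.06, adjusted p = 0.050 and 0.052), without vte1 day 1 replicate 2 the second was (2.07, adjusted p = 0.053), and both were lost without replicate 1 of all groups (adjusted p = 0.21 and 0.24) or replicate 2 of all groups (adjusted p = 0.22 and 0.29). Without WT day 3 replicate 3 the WT fall was smaller (-0.93, still called). AT5G42740, the other measured member of the gluconeogenesis list, had changes between -0.09 and 0.02 and was not called.

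**Figure D4:**
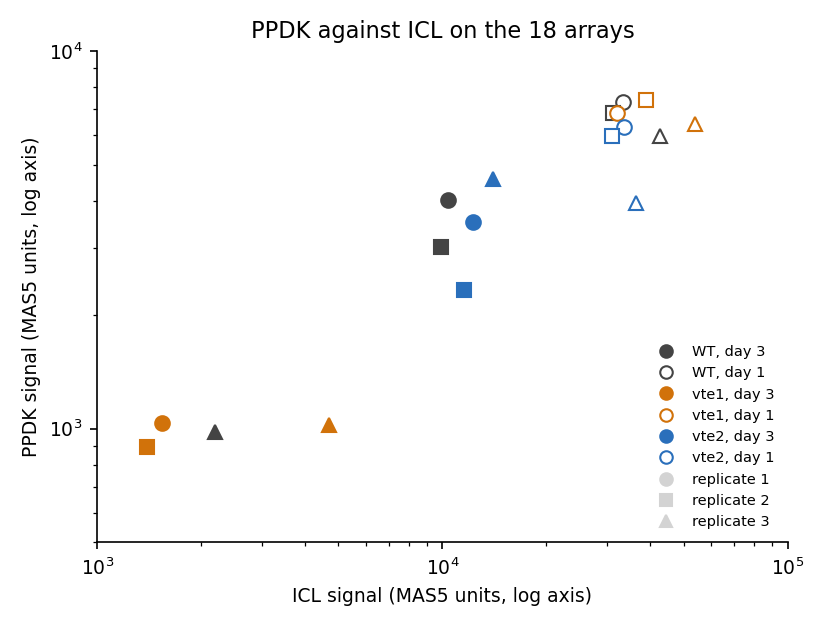
PPDK signal against ICL signal (MAS5 units, both axes log) on the 18 arrays; open markers are day 1, filled markers day 3, colours are genotypes and shapes replicate numbers. WT replicate 3 at day 3 (ICL 2187.3, PPDK 981.5) lies beside the vte1 arrays, while the other WT arrays lie near vte2.

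The enzymes that use the same metabolites were grouped after their names had been read from the annotation. Of 12 isocitrate, succinate and malate dehydrogenase genes, 10 passed the filter; 5 fell and 1 rose in WT, 4 fell and 1 rose in vte1, and 3 fell and 1 rose in vte2. Of all probe sets, 22.8%, 23.4% and 18.5% fell and 24.6%, 30% and 21.7% rose in WT, vte1 and vte2. None of the 10 was called between genotypes at either day, where between 0.0942% and 5.22% of all probe sets were, so that no call among 10 genes is near the background. SDH2-1 and SDH2-2, iron-sulphur subunits of the mitochondrial succinate dehydrogenase that takes up succinate, fell in all 3 genotypes, with changes of -1.91, -2.03 and -1.19 for SDH2-1 and -1.26, -1.77 and -1.17 for SDH2-2 in WT, vte1 and vte2. MDH, a malate dehydrogenase, fell as well (-1.71, -1.43 and -1.53). The 1 gene of this group that rose in each genotype was AT5G58330 (1.17, 0.87 and 0.84). Of the isocitrate dehydrogenases, which act on the same substrate as isocitrate lyase, IDH-V fell in WT (-0.94) and vte1 (-1.23) and did not pass in vte2 (-0.57). cICDH, the cytosolic form, had changes of 0.09, 0.15 and 0.12 that did not pass.

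For the peroxisome, PEX4, a ubiquitin-conjugating enzyme of peroxisomal protein import, was not called in any contrast (-0.27, -0.41 and 0.04 between the days in WT, vte1 and vte2). HPR1, hydroxypyruvate reductase of photorespiration, an enzyme of the leaf-type peroxisome into which the seed-type peroxisome is known to turn, moved opposite to ICL. It rose in WT (4.73), vte1 (4.58) and vte2 (3.33). At day 3 the WT arrays gave 26276.4, 28471.5 and 34464.2, those of vte1 27351.1, 20845.5 and 21606.9, and those of vte2 15872.4, 16145.8 and 12354.2. The vte2 arrays were the lowest 3 of the 9, as they were the highest 3 for ICL, and HPR1 was lower in vte2 than in WT (-1.01, limma adjusted p = 0.019) and not called between vte2 and vte1 (-0.65, adjusted p = 0.13). The call against WT was lost with quantile normalization (-0.45, adjusted p = 0.33) and without day 3 replicate 2 or 3 of WT or replicate 1 or 3 of vte2 (-1.06 to -0.88).

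**Figure D5:**
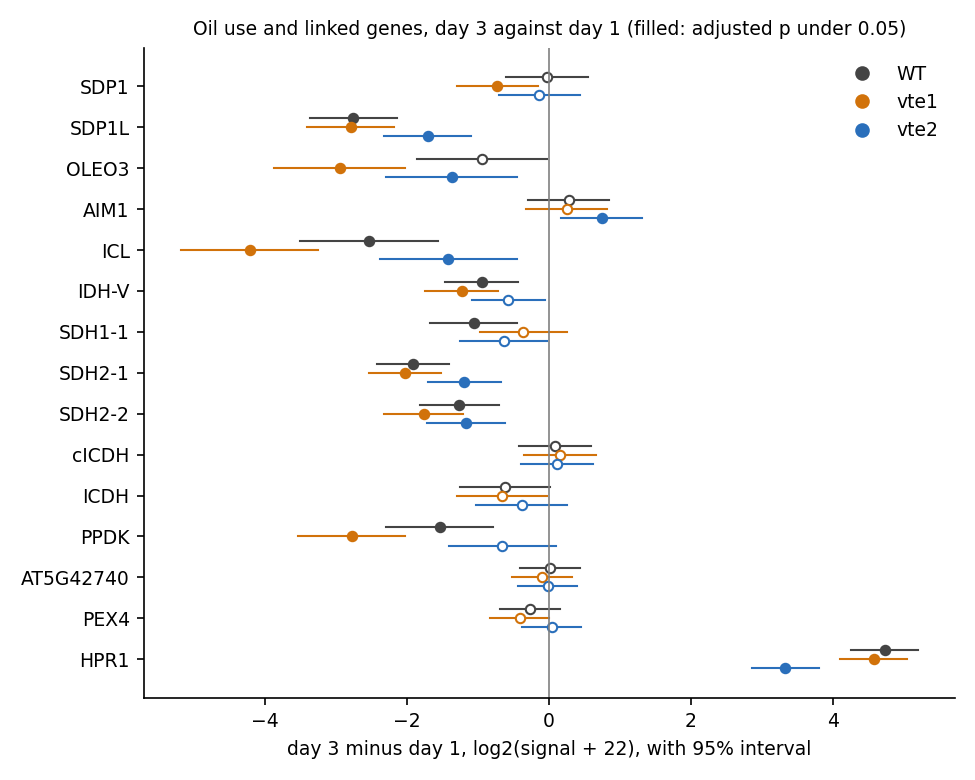
Day 3 minus day 1 difference in log2(signal + 22) for ICL and measured genes of oil use, of the enzymes that share its metabolites and of the peroxisome, in each genotype, with 95% intervals from limma; filled points have an adjusted p under 0.05. ICL (-2.53, -4.21 and -1.42 in WT, vte1 and vte2) fell in each genotype, PPDK (-1.54, -2.78 and -0.66) had its largest fall in vte1 as well, and HPR1 rose.

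Measures of seedling stage changed between the days as well, and their part in the ICL differences was not tested. All 7 measured members of the photosynthesis list (of 17 loci) rose in each genotype, where 24.6%, 30% and 21.7% of all probe sets rose in WT, vte1 and vte2. Their summed signal at day 3 was 232035, 220116 and 323935 on the WT arrays, 212489, 164267 and 157747 on those of vte1, and 157378, 166914 and 129514 on those of vte2. WT replicate 3, with the least ICL in its group, had the highest sum. Replicate 3 of vte1 and of vte2, each with the most ICL in its group, had the lowest sum of its group. The vte1 and vte2 sums overlapped, and none of the 7 was called between them at day 3, where 3.52% of all probe sets were. In the means the sums ran from WT over vte1 to vte2, an order that differs from that of ICL. At day 1 the sums were 25368 to 27511 in WT, 10978 to 23275 in vte1 and 32046 to 38946 in vte2, without overlap, while ICL overlapped among all 3 groups. There 5 of the 7 were called higher in vte2 than in vte1, where 5.22% of all probe sets were called. Lower calls in vte1 than in WT were 2 of the 7, where 2.09% of all probe sets were called. Within each day 1 group the array with the most ICL, replicate 3, also had the highest sum (27511, 23275 and 38946 in WT, vte1 and vte2). This is the reverse of what replicate 3 showed at day 3 in all 3 genotypes.

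LEA4-5, the 1 measured gene of 13 seed storage and late embryogenesis loci, whose protein accumulates late in seed development, was also uneven at day 1. The WT arrays gave 2025.7, 1900.9 and 103.9, those of vte1 10964.8, 12017.4 and 1605.3, and those of vte2 792.6, 801.9 and 454.5. All day 3 arrays were between 106.9 and 324.2. LEA4-5 was called lower in vte2 than in vte1 at day 1 (-3.13, limma adjusted p = 0.027), a call that leaving out any 1 of 5 arrays ended. Its vte1 minus WT value at day 1 of 2.92 was not called. Between the days it fell in vte1 (-4.45, adjusted p = 0.00013), with changes of -1.74 in WT and -2.04 in vte2 that did not pass. Replicate 3 was the lowest for LEA4-5 in each day 1 group, where it was the highest for ICL. The summed signal of the root hair markers EXPA7 and EXPA18 (2 of 4 loci) at day 3 was 574.1 to 1688.1 in WT, 1170.6 to 1355.1 in vte1 and 652.8 to 1103.3 in vte2, and neither gene was called between genotypes. At day 1 the sum was 673.8 to 1059.7 in WT, 61.6 to 324.2 in vte1 and 436.3 to 4759.9 in vte2. There EXPA7 was called lower in vte1 than in WT (-2.93, limma adjusted p = 0.020), and both were called higher in vte2 than in vte1 (3.01 and 2.56, adjusted p = 0.0085 and 0.028). Of the 18 single arrays, leaving out any 1 of 4 ended the first of these expansin calls and any 1 of 3 each of the others. BAN, the only measured endosperm and seed coat marker of 5, did not pass the filter, with signals between 1.9 and 63.3. How much of the ICL signal came from endosperm or from cotyledons was not tested.

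Over the 18 arrays, 24 of 8616 genes with a tested and singly named probe set (0.279%) had a Pearson correlation with ICL above 0.9 on the log2 scale. The 10 most alike were AT3G47800 (0.969), AT1G33790 (0.959), AT2G47780 (0.956), PPDK (0.947), AT4G27450 (0.934), LCR67 (0.930), PSF2 (0.923), AT1G72070 (0.922), AT1G31850 (0.921) and AT5G20400 (0.920). These correlations describe the arrays, which share the large change between the days. Over the 9 day 3 arrays alone the same 10 genes had r between 0.78 and 0.96, and over the 9 day 1 arrays between -0.74 and 0.85. After the mean of each group was taken away, r over the 18 arrays was between 0.26 and 0.72. PPDK had 0.915 at day 3, -0.07 at day 1 and 0.66 for the deviations from group means.

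Since these genes were chosen for their likeness to ICL, their values are a description. All 10 fell in WT and vte1, 9 fell in vte2, and 8 were higher in vte2 than in vte1 at day 3. Of all probe sets, 22.8%, 23.4% and 18.5% fell in WT, vte1 and vte2, and 2.53% were called higher in vte2 than in vte1 at day 3. AT3G47800 was the one that was also called lower in vte1 than in WT at day 3 (-1.42, limma adjusted p = 0.032), a call lost with only the groups compared, with no mean-variance trend, without replicate 1 or 2 of all groups and without any 1 of 6 arrays (replicates 1 and 2 of WT and of vte1 at day 3, and replicate 2 of WT and of vte2 at day 1). AT1G33790 was the one called higher in vte2 than in WT (1.45, adjusted p = 0.0070). LCR67, a plant defensin gene, had a vte2 minus vte1 value of 2.77 at day 3, close to that of ICL. Of the 29 alternatives, 5 ended this call of LCR67, 5 that of AT1G31850 and 10 that of AT4G27450. Between 1 and 3 ended each of the other calls between vte2 and vte1 at day 3 among these genes. The 5 genes most opposed to ICL were AT2G22510 (-0.960), AT2G35380 (-0.951), BGLU33 (-0.950), AT2G21100 (-0.949) and AT1G78990 (-0.946). All 5 rose in WT and vte1 and 4 rose in vte2, where 24.6%, 30% and 21.7% of all probe sets rose in WT, vte1 and vte2.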

How the data were processed

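Each array measured the RNA of 1 seedling sample. The deposited table holds MAS5 signal intensity per probe set (MAS5 per the submitters' processing notes), and on every array the authors' values had the same trimmed mean after 2% was taken from each end; no source used here gives other settings. Scanner files were not used, so background flags, saturation and scan dates were not examined. Gene names came from the platform annotation through the RefSeq table (TAIR10.1); 13513 probe sets have 1 gene, 503 several and 8730 none.

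Signals were taken as log2(signal + 22), with the 20th percentile of all signals as pseudocount, which understates changes of dim genes. Of 22746 probe sets, 15922 had a mean above the 30th percentile and were tested with limma 3.58.1 (R 4.3.3): 1 mean per group over 18 arrays, moderated with a mean-variance trend, two-sided p-values adjusted by Benjamini-Hochberg within a contrast, threshold 0.05. The procedure was tested on simulated data with known changes, for vte1 minus WT at day 3 only. The simulated noise was independent between arrays and probe sets, so deviations shared by arrays of 1 replicate number were not covered. Exact permutation tests and figures used Python 3.11.15.

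ICL, the lists, the tests and the alternatives were chosen with earlier results of these data known; the dehydrogenase list was added after the annotation had been read. Named genes were ICL, the measured list members, and the 10 most and 5 least correlated with ICL. A gene with several probe sets was represented by the one with the highest mean. The replicate number was checked for pairing by the correlation of deviations from group means between arrays of 1 number: all 3 were over 0.1 for the 3 pairs of genotypes at day 1 (0.25 to 0.59) and for WT and vte2 at day 3 (0.15 to 0.37), and not for the other contrasts.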

Additional observations from a re-analysis of the deposited data

Results flagged for a closer look

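Effects that differed between groups were taken from the change of a genotype difference between day 1 and day 3, tested with limma and adjusted over all probe sets; values are on the log2(signal + 22) scale, and adjusted p-values ran from 0.0011 to 0.048. The vte2 minus vte1 difference rose between the days for ICL (2.80), PPDK (2.12), AT1G33790 (2.24), AT2G47780 (3.01), AT3G47800 (2.56), AT4G27450 (2.21) and AT5G20400 (1.204). It fell for AT2G22510 (-2.41), for the root hair expansins EXPA7 (-3.55) and EXPA18 (-3.33), for HPR1 (-1.25), and for the photosynthesis genes LHCB4.1 (-1.62), PRK (-2.24), PSAE-1 (-2.42), PSAN (-2.02) and PSBW (-1.14). Both expansins and 5 of the 7 photosynthesis list members were called higher in vte2 than in vte1 at day 1, and none of them was called at day 3. The median vte2 minus vte1 difference of the 7 was 1.39 at day 1 and -0.23 at day 3. Of the 29 alternatives, 2 each ended the calls of AT1G33790, AT3G47800, PSAE-1 and PSAN, 4 each those of ICL and PPDK, and 7 each those of AT2G22510, LHCB4.1 and PSBW. The calls of HPR1 and AT4G27450 were each ended by 8, that of EXPA7 by 10, of PRK by 11, of EXPA18 by 16, of AT2G47780 by 17 and of AT5G20400 by 20. Leaving out 1 array was enough in 15 of 18 cases for AT5G20400, 12 for AT2G47780, 10 for EXPA18, 8 for PRK, 7 for EXPA7, 6 for AT4G27450, 5 each for HPR1 and LHCB4.1, 4 for AT2G22510, 3 for PSBW and 2 each for ICL and PPDK. For AT3G47800 the vte1 minus WT difference also changed between the days (-1.72, adjusted p = 0.039), a call that 16 of the 29 alternatives ended, among them leaving out any 1 of 11 arrays. The genes beginning with AT were among those chosen for their correlation with ICL, so that their direction is no separate evidence.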

How the results depend on the processing

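Each ICL contrast was refitted under 29 alternatives, which gave 348 values: 327 kept their direction and side of the threshold, 11 lost a call, 5 gained one and 5 changed sign. All sign changes were at day 1, where no difference was called: vte1 minus WT was -0.12 with quantile normalization and -0.00704 without vte1 day 1 replicate 3, vte2 minus WT was 0.0594 without WT day 1 replicate 3 and 0.00287 without replicate 3 of all groups, and vte2 minus vte1 was 0.10 with quantile normalization. With arrays or a replicate number left out, the range was -0.00704 to 0.37 for vte1 minus WT at day 1, -0.17 to 0.0594 for vte2 minus WT at day 1, -2.77 to -0.82 for vte1 minus WT at day 3 and 2.22 to 3.08 for vte2 minus vte1 at day 3. It was -1.49 to -1.35 for vte2 between the days, with the call lost without replicate 1 or 2 of all groups (adjusted p = 0.13 and 0.14). The change between the days ranged from -2.90 to -0.96 for vte1 minus WT and from 2.49 to 3.35 for vte2 minus vte1. With the replicate number as a block, no ICL call changed and the differences stayed as they were, as a balanced design gives (2.53 for vte2 minus vte1 at day 3); the causes of the other changes were not tested.

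The 18 tested list members besides ICL gave 3 calls for vte1 minus WT at day 1 (0 with only the groups compared; 0 to 9 with arrays or a number left out), 0 for vte2 minus WT at day 1 (0 to 1 left out), 8 for vte2 minus vte1 at day 1 (1 with only the groups compared; 0 to 12), 0 for vte1 minus WT at day 3 (0 to 6), 3 for vte2 minus WT at day 3 (0 with quantile normalization, 1 with only the groups compared; 0 to 4) and 1 for vte2 minus vte1 at day 3 (0 to 5). For the change between the days they gave 0 for vte1 minus WT (1 with quantile normalization, the replicate block or only the groups compared; 0 to 11), 0 for vte2 minus WT (1 with the replicate block; 0 to 4) and 9 for vte2 minus vte1 (4 with only the groups compared; 0 to 13). Of all probe sets, 2.09%, 0.0942%, 5.22%, 0.301%, 2.34%, 3.52%, 1.06%, 0.201% and 5.29% were called in these 9 contrasts, in the order given. The counts over all probe sets moved with the alternatives as well, for vte2 minus vte1 at day 1 from 831 to between 49 and 2923. The ranges are therefore not particular to the list members. Of 3857 values for 133 called results of other named genes, 310 lost the call and 0 changed sign. ICL was far above the dim range, so that the pseudocount and the filter changed no call; 3 arrays a group limit the precision.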
